A study of Homo sapiens with 12 samples.

Results

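The genes described here make ribosomes: the subunits of RNA polymerase I, the proteins that guide and catalyse modification of ribosomal RNA, and the factors that assemble both ribosomal subunits in the nucleolus. They were followed through 6 sorted populations of gastric cancer cells. Members were taken by gene symbol and not by their values: every symbol that begins with NOP and a number, NOL, or UTP and a number, the RNA polymerase I subunits POLR1A to POLR1E, and NCL, NPM1, FBL, DKC1, GAR1 and NHP2. NOL3 and NOL4, which carry the name without the function, were left out. The rule found 35 of the 34688 rows of the expression table. They stand for 34 genes, because NOLA1 is the older symbol of GAR1 and both have a row. UTP11L is the older symbol of UTP11.

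In the nucleolus RNA polymerase I transcribes the ribosomal DNA into a long precursor, which is cut, modified and folded while ribosomal proteins are added. Box C/D particles, with the methyltransferase fibrillarin (FBL) and the core proteins NOP56 and NOP58, methylate the RNA, and box H/ACA particles, with dyskerin (DKC1), GAR1, NHP2 and NOP10, convert uridine to pseudouridine. The UTP proteins and several NOL and NOP proteins form the small-subunit processome, and others such as NOP2, NOP16 and NOL9 act on precursors of the large subunit. Growing cells invest heavily in this pathway, many of its genes are targets of the transcription factor MYC, and enlarged nucleoli are a classical feature of tumor cells.

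Each population was hybridized on 2 Illumina Human HT-12 v3 BeadChips, which makes 12 arrays in all. Established gastric cancer lines KATO-III, SNU-216 and SNU-601, with no treatment other than sorting, were each divided by a flow cytometer after staining for CD133, the surface glycoprotein encoded by PROM1 that is used as a stem cell marker. Sorting gates took only the extremes of staining, 10% for the positive and 6% for the negative fraction, so cells of intermediate staining were not measured. The submitters' general description names SNU201 where the array labels have SNU-216, and the labels were followed. The sources do not say whether the 2 arrays of a population came from separate cultures, sorts or RNA extracts. The p-values therefore measure the spread between these arrays, which may be technical. The comparison of the fractions asks which transcripts accompany CD133, and the comparison of the lines asks how far that holds from one line to another.

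The deposited intensities were linear values that the authors had quantile-normalized, some of them below 0 as after background subtraction, and array medians lay between 26.0 and 27.1. Intensities under a floor of 32.7 were set to it before log2 was taken, and the 20147 rows that exceeded it on 2 arrays or more entered the tests. PROM1 was higher in the CD133+ cells of every line, by 1.10, 2.02 and 1.86 on the log2 scale in KATO-III, SNU-216 and SNU-601 (limma, adjusted p = 2.38e-06, 3.02e-07 and 5.65e-06). Of 11 gastric epithelial marker rows, 8 lay above the floor on every array, and TFF1, TFF2 and TFF3, genes of secreted trefoil peptides, were under it on all 4 SNU-216 arrays. These markers moved with the fractions as well: 4 were lower and 1 higher in CD133+ cells of KATO-III, 3 lower and 1 higher in SNU-216, and 5 lower in SNU-601. Of all rows, 20.6% were lower and 18.7% higher in KATO-III, 14% and 14.6% in SNU-216, and 7.78% lower in SNU-601. TACSTD1, the older symbol of EPCAM, was the 1 higher in KATO-III (log2 change 0.11, adjusted p = 0.0402, limma). It was among the lower ones in SNU-216 (log2 change -0.13, adjusted p = 0.0251), and the EPCAM row was called in neither line. In KATO-III the lower ones were TFF1 (log2 change -1.79), ELF3 (-0.91), CDH1 (-0.70) and TFF3 (-0.22), and ELF3, an epithelial transcription factor, was lower in every line (adjusted p = 1.68e-05, 0.00188 and 0.0269). The sum of 5 immune markers was 7963 to 8305 in KATO-III CD133+ cells, 5728 to 5949 in KATO-III CD133- cells, 9114 to 10064 in SNU-601 and 19.3 to 36.0 in SNU-216, and in KATO-III and SNU-601 it was mostly LYZ, the lysozyme gene, which gastric epithelium can also express. In KATO-III LYZ was higher in CD133+ cells (log2 change 0.66, adjusted p = 1.98e-05, limma) and CD14, at 835 to 1242, was lower (log2 change -0.53, adjusted p = 0.00609), while PTPRC and CD3D, which define leukocytes and T cells, were under the floor on all 12 arrays. The sum of 8 stromal markers was 449 to 504 in KATO-III CD133+ cells, 1045 to 1059 in KATO-III CD133- cells and 395 to 662 in the other populations. LUM, a proteoglycan gene, made up most of the KATO-III difference, at 64.4 and 91.6 in CD133+ and 743 and 783 in CD133- cells (log2 change -3.31, adjusted p = 1.73e-06), whereas COL1A1 (log2 change 0.84, adjusted p = 0.00977) and VIM (log2 change 0.43, adjusted p = 0.00567) were higher in KATO-III CD133+ cells and LUM was higher in those of SNU-216 (log2 change 0.90, adjusted p = 0.00323). COL3A1, DCN, THY1 and PDGFRB were under the floor throughout. None of 3 endothelial markers was above it on any array. The part of these markers in the results was not tested.

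Most of the nucleolar genes were among the brighter rows of the table. Of the 35 rows, 31 lay above the floor on all 12 arrays, POLR1A on 11 and UTP3 on 5. NPM1, which encodes the abundant nucleolar chaperone nucleophosmin, read between -22.7 and 9.28, and UTP20, a scaffold of the small-subunit processome, between -15.6 and 13.9. Both were above the floor on no array, so their rows give no level for either gene, and 33 rows were tested. An intensity depends on the probe as well as on the transcript, and no row was ranked against another by it.

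The fractions differed most in KATO-III, where 15 of the 33 nucleolar rows were higher in CD133+ cells, 2 were lower and 16 were not called (limma, adjusted p under 0.05). Over all 20147 rows, 18.7% were higher and 20.6% lower in that comparison, and the median log2 change was 0.23 over the nucleolar rows against 0.00 over all. Among rows above the floor on all 12 arrays, 14 of 31 nucleolar rows were higher, against 25.4% of all such rows, and 2 were lower, against 28.5%. The genes that rose belonged to every functional group except large-subunit assembly, and the 2 that fell, NOL12 and NOP2, belonged to that group. It has only 4 rows, and among 34 large-subunit factors outside the symbol rule 13 were higher and 6 lower. Whether the groups differ was not tested. The count rested in part on 1 array: without replicate 1 of the KATO-III CD133+ cells it was 9.

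In the other lines fewer nucleolar rows were called, as was so over all rows, and more fell than rose in the CD133+ fraction. In SNU-216, 2 nucleolar rows were higher in CD133+ cells and 7 were lower, against 14.6% and 14% of all rows, with a median of 0.00. In SNU-601, 2 were higher and 4 lower, against 8.59% and 7.78% of all rows, with a median of -0.06. Among rows above the floor on every array, 6 of 31 nucleolar rows were lower in SNU-216, 19.4% against 22.1% of all such rows, and 5 in SNU-601, 16.1% against 12.5%. On the same rows 3 were higher in SNU-216, 9.68% against 22.2%, and 2 in SNU-601, 6.45% against 13.8%. Of the 33 rows, 10 were called in no line (30.3% against 43.8% of all rows), 15 in 1 line (45.5% against 33.1%), 7 in 2 lines (21.2% against 18.1%) and NOP58 in all 3 (3.03% against 4.97%). Single arrays moved these counts: without 1 array at a time, 0 to 2 rows were higher in SNU-216, the 0 without replicate 1 of its CD133- cells, and in SNU-601 1 to 3 were higher and 1 to 5 lower, the lowest without replicate 2 of its CD133+ cells. None was higher in all 3 lines and none was lower in all 3, which 0.63% and 0.427% of all rows were. With shares so small, none among 33 rows says little about these genes.

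**Figure D1:**
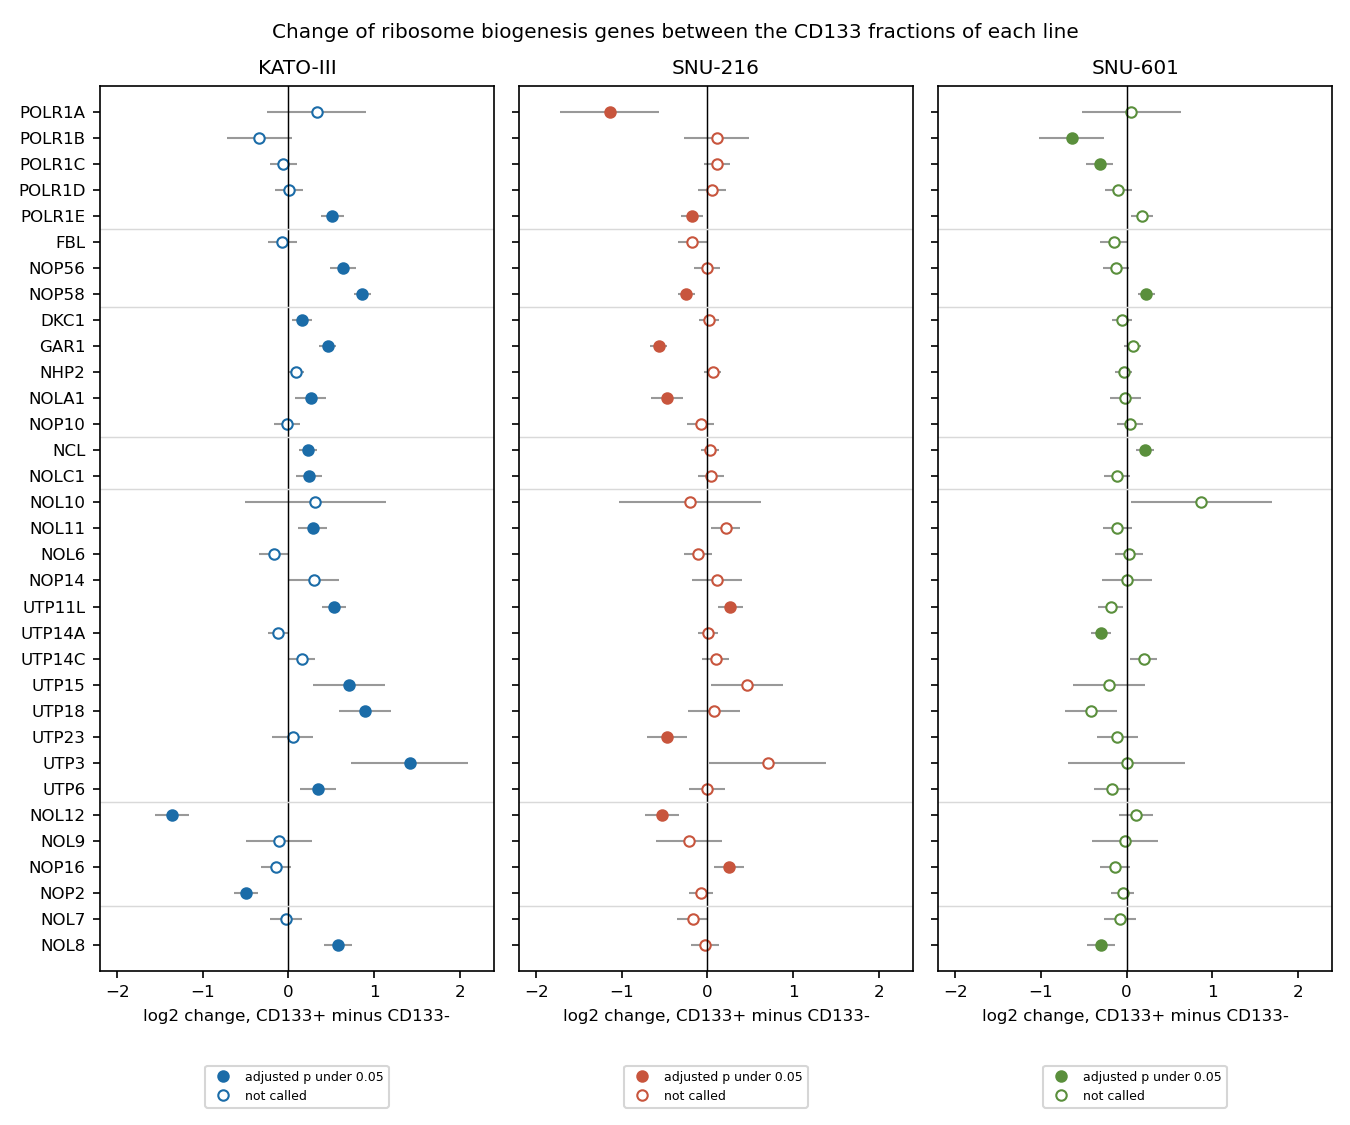
Log2 change of intensity between CD133+ and CD133- cells for the 33 nucleolar rows tested, with 95% confidence intervals, in each line (2 arrays per population), grouped by role and filled where limma's adjusted p was under 0.05. Filled points lie mostly to the right in KATO-III (15 higher, 2 lower) and mostly to the left in SNU-216 (2 higher, 7 lower) and SNU-601 (2 higher, 4 lower).

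Over the 3 lines together, with cell line as a block, no nucleolar row was called in either direction, against 2.62% of all rows higher and 2.11% lower. At an unadjusted p under 0.05, 6 rows passed, and the lowest adjusted p was 0.0813, for NCL (limma). Across the alternatives this lowest value ran from 0.0463 to 0.796. The signal-to-noise ratio, the difference of the fraction means over the sum of their SDs on 6 against 6 arrays, reached 1 or -1 for no nucleolar row, against 0.558% and 0.402% of all rows. No nucleolar row separated the fractions either: 0.352% of all rows tested had every CD133+ array above every CD133- array, and 0.169% had the reverse. At shares this small, finding none among the nucleolar rows says little about these genes.

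The change between fractions differed from line to line for 20 of the 33 nucleolar rows by limma's interaction test, 60.6% against 44.4% of all rows. Among rows above the floor on every array the shares were 58.1% and 62.3%. Without the filter on dim rows 11 were called, against 21.4% of all rows. Among the 8 called in more than 1 line, GAR1, NOLA1, NOL8, NOP58 and POLR1E changed in opposite directions in different lines, 15.2% of the 33 against 10.9% of all rows. GAR1 and NOLA1 are rows of the same gene. The calls of NOLA1 in KATO-III, NOL8 in SNU-601 and POLR1E in SNU-216 were each lost without the filter on dim rows. NCL, NOL12 and UTP11L changed the same way in the lines where they were called. Without replicate 1 of the KATO-III CD133+ cells or replicate 2 of the SNU-216 CD133- cells the interaction was called for 13 rows.

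The level in a line, averaged over its 2 fractions, was lowest in SNU-601 for 24 of the 33 nucleolar rows, where 28.6% of all rows had their lowest level. The F-test of the 3 line means was called for 29 rows, 87.9% against 72.3% of all rows, and for 90.3% against 86.4% among rows above the floor on every array. KATO-III was the highest line for 16, SNU-216 for 15 and SNU-601 for 2. These are 48.5%, 45.5% and 6.06% of the nucleolar rows, against 30.8%, 37.4% and 31.8% of all rows. By limma, 26 nucleolar rows were lower in SNU-601 than in KATO-III and 1 was higher, against 28.7% and 29.9% of all rows, with a median log2 difference of -0.39 against 0.02 over all rows. SNU-216 was above SNU-601 for 22 and below it for 4, against 29.4% and 27.1%, with a median of 0.54. Without replicate 1 of the SNU-601 CD133- cells, 2 rows were higher in SNU-601 than in KATO-III. The SNU-601 arrays stand in both comparisons. Between SNU-216 and KATO-III 13 rows were higher in SNU-216 and 12 lower, against 31.7% and 30.3%.

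The lower level in SNU-601 was seen in each fraction on its own. Among CD133+ cells 26 nucleolar rows were lower in SNU-601 than in KATO-III and 1 was higher, against 27.4% and 27.8% of all rows. Among CD133- cells 16 were lower and 1 was higher, against 23.5% and 24.3%. SNU-216 exceeded SNU-601 for 22 rows in the CD133+ cells, against 26.2% of all rows, and for 21 in the CD133- cells, against 27%. Between SNU-216 and KATO-III the balance turned over: 7 rows were higher in SNU-216 and 12 lower among CD133+ cells, against 29% and 28.5% of all rows, and 14 higher and 7 lower among CD133- cells, against 26.7% and 25.7%, with median log2 differences of -0.10 and 0.16. On rows above the floor on every array, 24 of 31 nucleolar rows were lower in SNU-601 than in KATO-III, against 35.3%. When the 2 arrays of a population were first averaged, 5 rows were lower in SNU-601 than in KATO-III, against 9.16% of all rows, and 12 were higher in SNU-216 than in SNU-601, against 12.1%. In bulk samples fewer cells of a type and less RNA per cell cannot be told apart.

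**Figure D2:**
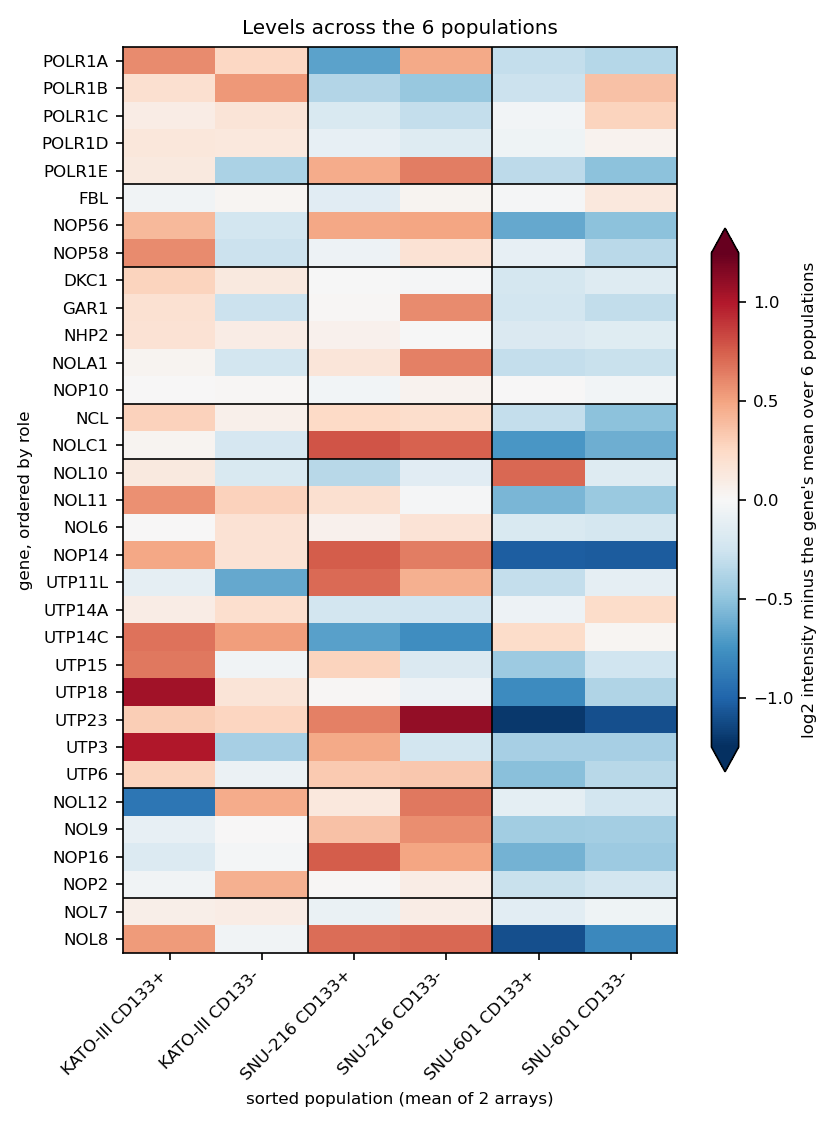
Mean log2 intensity of each nucleolar row in the 6 populations, minus that row's mean over the populations (color scale, red above and blue below), with rows ordered by role and 2 arrays per population. Blue prevails in the SNU-601 columns, where 24 of 33 rows had their lowest line mean, and UTP18 and UTP3 are the darkest red in KATO-III CD133+ cells.

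RNA polymerase I has POLR1A and POLR1B as its large catalytic subunits, shares POLR1C and POLR1D with RNA polymerase III, and has POLR1E as a subunit of its own. No subunit was called in all 3 lines: 1 of 5 was higher in KATO-III CD133+ cells, 2 were lower in SNU-216 and 2 were lower in SNU-601, where 18.7%, 14% and 7.78% of all rows were called in those directions. POLR1E read 2575 and 2524 in the CD133+ and 1755 and 1814 in the CD133- cells of KATO-III. It read 3107 and 3371 in the CD133+ and 3801 and 3519 in the CD133- cells of SNU-216, and 1868 and 1854 in the CD133+ and 1596 and 1698 in the CD133- cells of SNU-601. The CD133+ arrays were higher in KATO-III and SNU-601 and lower in SNU-216, with no overlap within a line. With 2 arrays against 2, such separation is easily met without a difference. Its share over all rows was not counted, here or for the genes below, so it only describes the arrays. The difference was 1.43-fold in KATO-III (log2 change 0.51, SE 0.06, adjusted p = 0.000128, limma). In SNU-216 the CD133+ level was lower (log2 change -0.18, SE 0.06, adjusted p = 0.0472), a call that was lost without any of 10 of the 12 arrays (log2 change -0.24 to -0.12, adjusted p up to 0.245) and under 6 of the 9 other alternatives. In SNU-601 the change was 0.18 (adjusted p = 0.0692), and the interaction of line and fraction had an adjusted p of 0.000511. POLR1E was also 1.97-fold higher in SNU-216 than in SNU-601 (log2 difference 0.97, SE 0.04, adjusted p = 2.56e-08).

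The other subunits showed no common pattern. POLR1A, dim throughout, read 34.3 and 32.3 in the CD133+ and 59.3 and 91.7 in the CD133- cells of SNU-216. Of these 4 arrays 1 CD133+ array was under the floor and the other just above it. It was 2.20-fold lower in the CD133+ cells on the floored scale (log2 change -1.14, adjusted p = 0.0092), and the call was lost without replicate 2 of either fraction (log2 change -1.45 to -0.83, adjusted p up to 0.0658). In the other lines POLR1A read 78.8 and 81.9 in the CD133+ and 73.4 and 55.5 in the CD133- cells of KATO-III, and 47.4 and 39.5 in the CD133+ and 34.3 and 50.5 in the CD133- cells of SNU-601, and it was not called there. POLR1B read 108 and 93.5 in the CD133+ and 142 and 174 in the CD133- cells of SNU-601. Its CD133+ arrays lay below both CD133- arrays in SNU-601, by 1.56-fold (log2 change -0.64, SE 0.17, adjusted p = 0.0308), a call lost without either CD133+ array or CD133- replicate 2 of that line (log2 change -0.79 to -0.49, adjusted p up to 0.161) and without the filter on dim rows. It read 149 and 132 in the CD133+ and 169.8 and 184 in the CD133- cells of KATO-III, again lower in the CD133+ arrays but not called (adjusted p = 0.149), and 86.3 and 103 in the CD133+ and 79.5 and 95.9 in the CD133- cells of SNU-216, where the arrays overlapped. Between lines it was 1.74-fold lower in SNU-216 than in KATO-III (adjusted p = 0.000245).

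POLR1C and POLR1D, the subunits common to both polymerases, were bright in every population. POLR1C read 3725 and 3695 in the CD133+ and 4709 and 4515 in the CD133- cells of SNU-601, with the CD133+ arrays 1.24-fold lower (log2 change -0.31, SE 0.07, adjusted p = 0.0155), a call lost without either CD133+ array or CD133- replicate 1 of SNU-601 (log2 change -0.34 to -0.28, adjusted p up to 0.088). It read 4301 and 3859 in the CD133+ and 4200.3 and 4304 in the CD133- cells of KATO-III, and 3129.5 and 3556 in the CD133+ and 3126 and 3055 in the CD133- cells of SNU-216, and was not called in either line. POLR1D was not called within any line. Its intensities were 8954 and 7732 in the CD133+ and 8025 and 8514 in the CD133- cells of KATO-III, 7226 and 6812 in the CD133+ and 6688 and 6858 in the CD133- cells of SNU-216, and 7161 and 7446 in the CD133+ and 7590.5 and 8013 in the CD133- cells of SNU-601. The 95% intervals of its log2 change were -0.15 to 0.17, -0.11 to 0.21 and -0.26 to 0.07 in KATO-III, SNU-216 and SNU-601, which leaves changes of that size possible.

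Among the box C/D proteins NOP58 was called in every line, in differing directions. NOP58 (chr2:202265763-202303661, GRCh38.p14) read 8039.8 and 7673 in the CD133+ and 4226 and 4412 in the CD133- cells of KATO-III. It read 5132 and 4836 in the CD133+ and 5835 and 5993 in the CD133- cells of SNU-216, and 4842 and 4821 in the CD133+ and 4133 and 4103 in the CD133- cells of SNU-601. The CD133+ arrays exceeded both CD133- arrays in KATO-III and SNU-601 and fell below them in SNU-216. In KATO-III the difference was 1.82-fold (log2 change 0.86, SE 0.04, adjusted p = 2.11e-06, limma), in SNU-601 it was 1.17-fold (log2 change 0.23, SE 0.04, adjusted p = 0.00904), and in SNU-216 the CD133+ level was 1.19-fold lower (log2 change -0.25, SE 0.04, adjusted p = 0.00323). NOP58 had the smallest interaction p of the nucleolar rows (adjusted p = 1.37e-05), and each of its 3 calls held when any 1 array was left out.

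NOP56, the partner of NOP58 in the same particle, was called in KATO-III and in no other line. There the CD133+ mean was an intensity of 5256 ± 198 and the CD133- mean 3375 ± 22.5 (SD, n = 2), a 1.56-fold difference (log2 change 0.64, SE 0.07, adjusted p = 8.51e-05). The means were 5541 ± 529 and 5560.1 ± 215 in SNU-216 and 2550.1 ± 97.8 and 2777 ± 23.3 in SNU-601 in the same order, and neither was called. The interaction had an adjusted p of 0.000424. NOP56 was 2.08-fold higher in SNU-216 than in SNU-601 (log2 difference 1.06, SE 0.05, adjusted p = 3.81e-08). FBL, the methyltransferase of the particle, was not called within any line or between any pair of lines. It read 10254 and 9888 in the CD133+ and 10351 and 10789 in the CD133- cells of KATO-III, 9047 and 9799.7 in the CD133+ and 10549.8 and 10712 in the CD133- cells of SNU-216, and 10641 and 9918 in the CD133+ and 10598 and 12244 in the CD133- cells of SNU-601. Every CD133+ array lay below both CD133- arrays in KATO-III and SNU-216, and the fractions overlapped in SNU-601. The 95% intervals of its log2 change were -0.23 to 0.10, -0.34 to -0.01 and -0.31 to 0.02 in the 3 lines, with adjusted p of 0.522, 0.112 and 0.223.

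GAR1, a core protein of the box H/ACA particle, changed in opposite directions in 2 lines, and both of its rows showed it. The GAR1 row read 3079 and 3214 in the CD133+ and 2351 and 2225 in the CD133- cells of KATO-III. It read 2749 and 2816 in the CD133+ and 4159 and 4095 in the CD133- cells of SNU-216, and 2307 and 2376 in the CD133+ and 2220.4 and 2234 in the CD133- cells of SNU-601. The fractions did not overlap in KATO-III, SNU-216 or SNU-601, with CD133+ above CD133- in the first and last and below it in SNU-216. In KATO-III the difference was 1.38-fold (log2 change 0.46, SE 0.04, adjusted p = 5.11e-05, limma), in SNU-216 the CD133+ level was 1.48-fold lower (log2 change -0.57, SE 0.04, adjusted p = 3.41e-05), and in SNU-601 the change of 0.07 was not called (adjusted p = 0.328). The interaction had an adjusted p of 1.6e-05.

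The row under the older symbol NOLA1 read 1509 and 1338 in the CD133+ and 1173 and 1203 in the CD133- cells of KATO-III. It read 1488 and 1609 in the CD133+ and 2317 and 1992 in the CD133- cells of SNU-216, and 1120.4 and 1149 in the CD133+ and 1149 and 1141 in the CD133- cells of SNU-601. CD133+ was again above CD133- in KATO-III and below it in SNU-216, while the SNU-601 arrays overlapped. Its log2 changes were 0.26 in KATO-III (adjusted p = 0.0328), -0.47 in SNU-216 (adjusted p = 0.0025) and -0.01 in SNU-601 (adjusted p = 1). The KATO-III call was lost when CD133+ replicate 1 or either CD133- array of KATO-III or either CD133- array of SNU-601 was left out (log2 change 0.17 to 0.35, adjusted p up to 0.212) and without the filter on dim rows or without limma's variance trend. Both rows were highest in SNU-216, at 1.48-fold (GAR1) and 1.60-fold (NOLA1) the SNU-601 level.

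**Figure D3:**
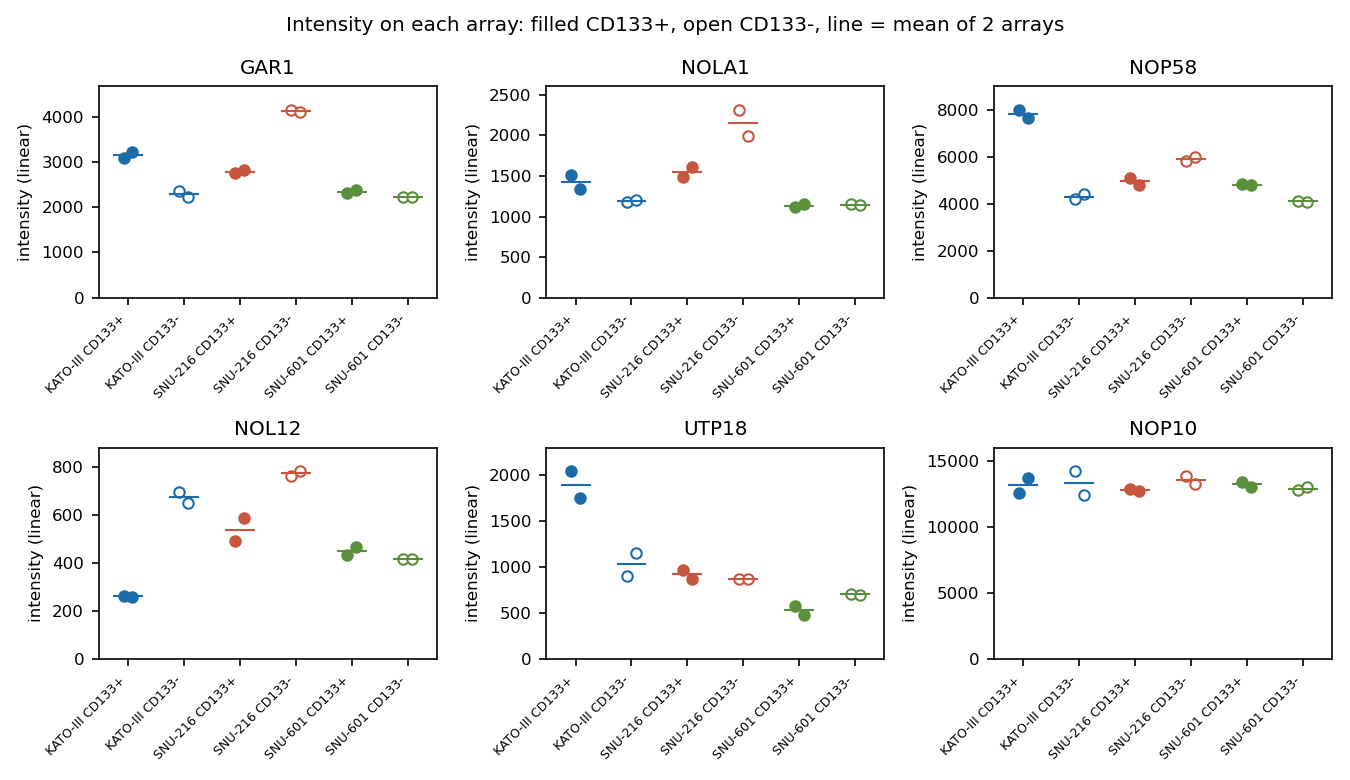
Linear intensity on each of the 12 arrays for 6 nucleolar rows (filled circles CD133+, open circles CD133-, horizontal lines the mean of 2 arrays), each on its own axis from 0. GAR1 and NOLA1 peak in SNU-216 CD133- cells, NOP58 and UTP18 in KATO-III CD133+ cells, NOL12 dips in KATO-III CD133+ cells, and NOP10 stays between 12432 and 14236.

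DKC1, the pseudouridine synthase of the particle, read 16180.3 and 14675 in the CD133+ and 13525 and 14012 in the CD133- cells of KATO-III. It was 1.12-fold higher in the CD133+ cells (log2 change 0.16, SE 0.05, adjusted p = 0.0349), a call lost without CD133+ replicate 1 or either CD133- array of KATO-III (log2 change 0.09 to 0.23, adjusted p up to 0.167) and without the filter on dim rows or without limma's variance trend. It read 12780.0 and 12575 in the CD133+ and 12798 and 12302 in the CD133- cells of SNU-216, and 10784 and 11017 in the CD133+ and 11495 and 11190.3 in the CD133- cells of SNU-601, with overlap in SNU-216 and no call in either line. DKC1 was highest in KATO-III, lower in SNU-216 and lowest in SNU-601, and each pair of lines was called (adjusted p at most 0.00197). NHP2 read 6348 and 6541 in the CD133+ and 6112 and 6009 in the CD133- cells of KATO-III, 5868 and 5988 in the CD133+ and 5545 and 5827 in the CD133- cells of SNU-216, and 5146 and 4914 in the CD133+ and 5044 and 5234 in the CD133- cells of SNU-601. Its fractions separated in KATO-III and SNU-216 by small amounts and overlapped in SNU-601, and no line was called. Its level was 1.23-fold lower in SNU-601 than in KATO-III (log2 difference -0.30, SE 0.03, adjusted p = 2.37e-05).

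NOP10, the smallest protein of the H/ACA core, was the flattest of the 33 rows tested. Its 12 intensities ran from 12432 to 14236, a ratio of 1.15, where the other rows had ratios of at least 1.28. It was not called in any line, in the interaction or between lines, and the 95% intervals of its log2 change between fractions were -0.17 to 0.14, -0.23 to 0.07 and -0.12 to 0.19 in KATO-III, SNU-216 and SNU-601.

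NCL encodes nucleolin, which binds ribosomal RNA precursors, and NOLC1 encodes a chaperone that shuttles small nucleolar particles into the nucleolus. NCL read 6139 and 6269 in the CD133+ and 5333 and 5255 in the CD133- cells of KATO-III. It read 5991 and 6038 in the CD133+ and 6043 and 5754 in the CD133- cells of SNU-216, and 4098 and 4139.8 in the CD133+ and 3684 and 3419 in the CD133- cells of SNU-601. CD133+ arrays lay above CD133- arrays in KATO-III and SNU-601 and overlapped them in SNU-216. The difference was 1.17-fold in KATO-III (log2 change 0.23, SE 0.05, adjusted p = 0.0036) and 1.16-fold in SNU-601 (log2 change 0.21, SE 0.05, adjusted p = 0.0132), and the SNU-601 call was lost without either CD133+ array or CD133- replicate 2 of that line (log2 change 0.16 to 0.27, adjusted p up to 0.0677) and without limma's variance trend. Every SNU-601 array was below every array of the other lines, by 1.50-fold against KATO-III (log2 difference -0.58, SE 0.03, adjusted p = 2.78e-07). NOLC1 had means of 2206 ± 66.4 and 1869.9 ± 48.3 in CD133+ and CD133- cells of KATO-III, 3719 ± 263 and 3612 ± 1.26 in SNU-216, and 1306 ± 111 and 1412 ± 11.7 in SNU-601 (SD, n = 2). It was 2.70-fold higher in SNU-216 than in SNU-601 (log2 difference 1.43, SE 0.05, adjusted p = 5.03e-09), beside a 1.18-fold change between the KATO-III fractions (adjusted p = 0.0195). That KATO-III call was lost without any 1 of its 4 arrays (log2 change 0.21 to 0.27, adjusted p up to 0.109) and without the filter on dim rows.

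Of the 12 tested rows of the small-subunit processome, the large complex that cuts out and folds the small-subunit RNA, 6 were higher in CD133+ cells of KATO-III and none was lower, against 18.7% and 20.6% of all rows. UTP18, a member of its UTP-B subcomplex, read 2048 and 1755 in the CD133+ and 903 and 1161 in the CD133- cells of KATO-III. It read 973 and 877 in the CD133+ and 877 and 870.4 in the CD133- cells of SNU-216, and 584 and 481 in the CD133+ and 712 and 701 in the CD133- cells of SNU-601. The 2 fractions were apart in KATO-III, with CD133+ higher, and in SNU-601, with CD133+ lower, and overlapped in SNU-216. The difference was 1.85-fold in KATO-III (log2 change 0.89, SE 0.13, adjusted p = 0.000762, limma), the changes in SNU-216 and SNU-601 were 0.08 and -0.41 (adjusted p = 0.776 and 0.0696), and the interaction had an adjusted p of 0.00157. The KATO-III level over both fractions was 2.28-fold that of SNU-601 (adjusted p = 3.74e-06).

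UTP3, an early factor of the processome, read 93.4 and 81.4 in the CD133+ and 13.6 and 28.8 in the CD133- cells of KATO-III. Both KATO-III CD133- values were under the floor, so the CD133+ level was at least 2.67-fold higher (log2 change 1.42, SE 0.30, adjusted p = 0.00529). It read 89.2 and 41.3 in the CD133+ and 42.5 and 18.6 in the CD133- cells of SNU-216, and 32.2 and 22.9 in the CD133+ and 22.7 and 3.65 in the CD133- cells of SNU-601, with every SNU-601 array under the floor and no call in SNU-216 (adjusted p = 0.124). UTP11L, another of its proteins, read 3936 and 3592 in the CD133+ and 2669 and 2533 in the CD133- cells of KATO-III. It read 6485 and 6768 in the CD133+ and 5333 and 5669 in the CD133- cells of SNU-216, and 3164 and 3447 in the CD133+ and 3783 and 3737 in the CD133- cells of SNU-601. CD133+ was above CD133- in KATO-III and SNU-216 and below it in SNU-601. The difference was 1.45-fold in KATO-III (adjusted p = 0.000181) and 1.20-fold in SNU-216 (adjusted p = 0.0113), and -0.19 on the log2 scale in SNU-601 (adjusted p = 0.0774). The SNU-216 call was lost without CD133+ replicate 2 or CD133- replicate 1 of that line (log2 change 0.22 to 0.31, adjusted p up to 0.078). UTP11L was the 1 nucleolar row called higher in SNU-601 than in KATO-III, by 1.13-fold (adjusted p = 0.0078).

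The remaining processome rows called in KATO-III were UTP15, NOL11 and UTP6, of which UTP15 and NOL11 belong to the UTP-A subcomplex that also supports transcription of ribosomal DNA. UTP15 read 325 and 316 in the CD133+ and 224 and 173 in the CD133- cells of KATO-III, a 1.63-fold difference (adjusted p = 0.0147) lost without either CD133+ array or CD133- replicate 2 (log2 change 0.52 to 0.89, adjusted p up to 0.109). NOL11 read 6917 and 6218 in the CD133+ and 5048 and 5751 in the CD133- cells of KATO-III, 1.22-fold apart (adjusted p = 0.0143), lost without replicate 1 of either fraction (log2 change 0.19 to 0.38, adjusted p up to 0.111). UTP6, of UTP-B, read 4875 and 4923 in the CD133+ and 3619 and 4090.2 in the CD133- cells of KATO-III, 1.27-fold apart (adjusted p = 0.0151), lost without either CD133+ array or CD133- replicate 1 (log2 change 0.26 to 0.44, adjusted p up to 0.114) and without the filter on dim rows. In each of these 3 genes both CD133+ arrays lay above both CD133- arrays. NOL6, the homolog of yeast Utp22, was not called in any line, with 12 intensities between 1694 and 2382. NOL10, dim at 39.0 to 149, was called in no comparison and had wide 95% intervals for its log2 change (0.05 to 1.70 in SNU-601).

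The 2 widest differences between lines lay among processome genes. UTP23, which acts in release of a small nucleolar RNA from the precursor, read 680.1 and 794 in the CD133+ and 1043 and 997 in the CD133- cells of SNU-216. It read 222 and 191 in the CD133+ and 236 and 208 in the CD133- cells of SNU-601, and 600.4 and 579.7 in the CD133+ and 554 and 587 in the CD133- cells of KATO-III. Every SNU-601 array was below every KATO-III array and every KATO-III array below every SNU-216 array, and SNU-216 exceeded SNU-601 by 4.05-fold (log2 difference 2.02, SE 0.07, adjusted p = 1.13e-08). UTP23 was the row with the widest difference between 2 lines, and it was also 1.39-fold lower in CD133+ cells of SNU-216 (adjusted p = 0.00913), a call lost without replicate 1 of either fraction (log2 change -0.58 to -0.36, adjusted p up to 0.0699). NOP14, an assembly factor of the early small subunit, read 861 and 876 in the CD133+ and 843 and 764 in the CD133- cells of SNU-216. It read 222 and 288 in the CD133+ and 276 and 229 in the CD133- cells of SNU-601, and 739 and 705 in the CD133+ and 597 and 574 in the CD133- cells of KATO-III. The 3 lines did not overlap, and SNU-216 was 3.31-fold above SNU-601 (log2 difference 1.73, SE 0.09, adjusted p = 1.42e-07). NOP14 was not called between the fractions of any line.

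UTP14A and UTP14C are a gene and its near-identical retrotransposed copy, and how far each probe reads the other is uncertain. UTP14A read 1718 and 1759 in the CD133+ and 2109.6 and 2161 in the CD133- cells of SNU-601, 1.23-fold lower in CD133+ cells (log2 change -0.30, SE 0.05, adjusted p = 0.00535, limma). It read 1951 and 1922 in the CD133+ and 2124 and 2079 in the CD133- cells of KATO-III, and 1536 and 1575 in the CD133+ and 1471 and 1623 in the CD133- cells of SNU-216, with the CD133+ arrays lower in KATO-III, overlap in SNU-216 and no call in either. UTP14C had means of 1991 ± 17.3 and 1790.4 ± 159.6 in CD133+ and CD133- cells of KATO-III, 1451 ± 21.8 and 1263 ± 93.8 in SNU-601 and 773 ± 1.10 and 725 ± 15.1 in SNU-216 (SD, n = 2). It was 2.52-fold lower in SNU-216 than in KATO-III (log2 difference -1.33, SE 0.05, adjusted p = 1.1e-08). Its CD133+ arrays lay above both CD133- arrays in each line, but no line was called (adjusted p = 0.111, 0.391 and 0.0851 in KATO-III, SNU-216 and SNU-601). How many of all rows separate in this way was not counted.

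Of 4 member genes that act on the large subunit, 2 were lower in CD133+ cells of KATO-III and none was higher, against 20.6% and 18.7% of all rows, and whether they differ from the other members was not tested. Among 34 large-subunit factors outside the symbol rule, 13 were higher and 6 lower in KATO-III. NOL12 (chr22:37686343-37693474, GRCh38.p14), which takes part in cutting the ribosomal RNA precursor, read 263 and 260.2 in the CD133+ and 696 and 650.4 in the CD133- cells of KATO-III. It read 491 and 586 in the CD133+ and 763 and 783 in the CD133- cells of SNU-216, and 434 and 469 in the CD133+ and 418 and 418 in the CD133- cells of SNU-601. CD133+ arrays lay below CD133- arrays in KATO-III and SNU-216 and above them in SNU-601. The CD133+ level was 2.57-fold lower in KATO-III (log2 change -1.36, SE 0.09, adjusted p = 6.77e-06, limma) and 1.44-fold lower in SNU-216 (log2 change -0.53, SE 0.09, adjusted p = 0.00213), while the change of 0.11 in SNU-601 was not called (adjusted p = 0.488). The interaction had an adjusted p of 9.03e-05. The KATO-III change was the strongest decrease of any nucleolar row in that line, and neither call was lost when 1 array was left out.

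NOP2, a methyltransferase of the large-subunit RNA long used as a proliferation antigen, read 1632 and 1513 in the CD133+ and 2215 and 2211 in the CD133- cells of KATO-III. It read 1592 and 1696 in the CD133+ and 1675 and 1796 in the CD133- cells of SNU-216, and 1378 and 1307 in the CD133+ and 1348 and 1422 in the CD133- cells of SNU-601. The KATO-III CD133- arrays stood above all 10 others, and CD133+ was 1.41-fold lower there (log2 change -0.49, SE 0.06, adjusted p = 0.000229), with no call in SNU-216 or SNU-601. NOP16 read 2543 and 2189.7 in the CD133+ and 2013 and 1941 in the CD133- cells of SNU-216, 1.19-fold higher in CD133+ cells (adjusted p = 0.0368), a call lost without any of 9 of the 12 arrays (log2 change 0.15 to 0.36, adjusted p up to 0.217) and without the filter on dim rows or without limma's variance trend. Between lines, NOP16 in SNU-216 was 2.22-fold above SNU-601 (log2 difference 1.15, SE 0.05, adjusted p = 6.96e-08), with means of 927 ± 7.83 and 1020.3 ± 35.9 in the CD133+ and CD133- cells of SNU-601. NOL9, a kinase that acts on ends of the cut precursor, was dim at 72.0 to 163, was not called between fractions, and was 1.87-fold higher in SNU-216 than in SNU-601 (adjusted p = 0.000117).

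NOL8 and NOL7 are nucleolar proteins outside these groups. NOL8 read 1416 and 1552 in the CD133+ and 999.6 and 987 in the CD133- cells of KATO-III. It read 1709 and 1607 in the CD133+ and 1677 and 1694 in the CD133- cells of SNU-216, and 499.7 and 456 in the CD133+ and 615 and 557 in the CD133- cells of SNU-601. CD133+ was above CD133- in KATO-III, below it in SNU-601 and overlapping in SNU-216, and every SNU-601 array was below every array of the other lines. The difference was 1.49-fold in KATO-III (log2 change 0.58, SE 0.07, adjusted p = 0.000258) and 1.23-fold in the opposite direction in SNU-601 (log2 change -0.29, SE 0.07, adjusted p = 0.0246), the latter lost without CD133+ replicate 2 or CD133- replicate 1 of that line (log2 change -0.37 to -0.22, adjusted p up to 0.133) and without the filter on dim rows or without limma's variance trend. SNU-216 exceeded SNU-601 by 3.16-fold (log2 difference 1.66, SE 0.05, adjusted p = 3.11e-09). NOL7 stayed between 9728 and 12438 on all arrays and was not called between fractions.

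Promoter sequence was available from RefSeq (GRCh38.p14) for 29 of the 34 genes, as the 250 bases before a transcription start. The motif CACGTG, the E-box bound by MYC and other basic helix-loop-helix factors, reads the same on both strands and was the only motif searched. It was found upstream of 6 of the 29 genes (20.7%), NOL7, NOL8, NOP10, UTP14A, UTP18 and UTP20, and upstream of 1542 of 15843 protein-coding genes (9.73%). A match is only a description of the letters. The upstream sequences printed here, 5′ to 3′ on the strand of the gene with the motif in capitals, are those of UTP18 (chr17:51260296-51260545, plus strand) and NOL8 (chr9:92325351-92325600, minus strand), both higher in KATO-III CD133+ cells, of NOP10 (chr15:34343137-34343386, minus strand), the flattest row, which holds the motif in 2 places, and of GAR1 (chr4:109815260-109815509, plus strand), which moved in opposite directions in KATO-III and SNU-216 and holds no match.
UTP18: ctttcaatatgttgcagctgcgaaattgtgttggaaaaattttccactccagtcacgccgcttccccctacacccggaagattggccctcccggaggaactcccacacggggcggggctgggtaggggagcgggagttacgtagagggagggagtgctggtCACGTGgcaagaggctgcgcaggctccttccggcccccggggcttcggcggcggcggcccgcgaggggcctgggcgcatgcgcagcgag
NOL8: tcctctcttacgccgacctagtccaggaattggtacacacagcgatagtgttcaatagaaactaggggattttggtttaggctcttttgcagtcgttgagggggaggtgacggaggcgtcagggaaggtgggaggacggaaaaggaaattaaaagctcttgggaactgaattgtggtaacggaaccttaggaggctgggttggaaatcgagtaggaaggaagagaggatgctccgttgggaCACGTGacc
NOP10: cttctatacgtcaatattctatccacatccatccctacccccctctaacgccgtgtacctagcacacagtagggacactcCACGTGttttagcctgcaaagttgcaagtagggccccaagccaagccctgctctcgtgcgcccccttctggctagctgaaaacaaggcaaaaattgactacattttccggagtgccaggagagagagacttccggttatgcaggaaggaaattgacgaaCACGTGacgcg
GAR1: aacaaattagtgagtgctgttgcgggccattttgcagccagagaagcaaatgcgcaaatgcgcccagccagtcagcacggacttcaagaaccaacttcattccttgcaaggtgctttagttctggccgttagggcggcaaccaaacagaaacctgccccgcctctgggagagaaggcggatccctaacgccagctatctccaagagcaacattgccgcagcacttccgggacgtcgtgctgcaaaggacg

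MYC itself read 3598 and 3733 in the CD133+ and 3259 and 3393 in the CD133- cells of KATO-III, 4153 and 3940.4 in the CD133+ and 4579.6 and 4644 in the CD133- cells of SNU-216, and 3477 and 3486 in the CD133+ and 3673 and 3851 in the CD133- cells of SNU-601. Its CD133+ arrays were above both CD133- arrays in KATO-III and below them in SNU-216 and SNU-601. By limma the log2 change was 0.14 in KATO-III (adjusted p = 0.0342), -0.19 in SNU-216 (adjusted p = 0.0121) and -0.11 in SNU-601 (adjusted p = 0.137). Between lines MYC was higher in SNU-216 than in KATO-III by 0.31 (adjusted p = 1.93e-05) and than in SNU-601 by 0.26 (adjusted p = 7.27e-05), while SNU-601 and KATO-III differed by 0.05 (adjusted p = 0.197). The part of MYC in the nucleolar genes was not tested.

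A further 107 genes of the pathway outside the symbol rule were listed by function, and 105 of them were tested. In KATO-III 41 were higher in CD133+ cells and 15 lower, against 18.7% and 20.6% of all rows, with a median log2 change of 0.17. In SNU-216, 22 were higher and 28 lower, against 14.6% and 14% of all rows, with a median of -0.06. In SNU-601, 8 were higher and 17 lower, against 8.59% and 7.78%, with a median of -0.08. In KATO-III the other factors of the small subunit had 12 of 33 higher and 4 lower, those of the large subunit 13 of 34 higher and 6 lower, the assembly factors of small nucleolar particles 3 of 7 higher, and the exosome and RNase MRP subunits, which trim and cut the precursor, 10 of 21 higher and 4 lower. Over all lines 4 of the 105 were higher and none was lower, against 2.62% and 2.11% of all rows. That fit counted the 2 arrays of a population as separate, though their residuals correlated at 0.641. Between lines 71 of the 105 were lower in SNU-601 than in KATO-III and 13 higher, against 28.7% and 29.9% of all rows. In SNU-216 against SNU-601, 69 were higher and 12 lower, against 29.4% and 27.1%.

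Proliferation genes also differed between fractions and lines. Of 17 listed, 11 were higher in CD133+ cells of KATO-III, 4 in SNU-216 and 8 in SNU-601, against 18.7%, 14.6% and 8.59% of all rows, and none was lower in any line. Over all lines 5 of the 17 were higher, against 2.62% of all rows, where 0 of the 33 nucleolar rows were called. Of the 5 proliferation genes, CDC2 and TOP2A are among those the study had picked from the same arrays as higher in CD133+ cells. Their calls were therefore fixed in part beforehand, and that fit too counted the arrays of a population as separate. Between lines 10 of the 17 were lower in SNU-601 than in KATO-III and 4 were higher, against 28.7% and 29.9% of all rows. In SNU-216 against SNU-601, 12 were higher and 2 lower, against 29.4% and 27.1%. Of the 33 nucleolar rows 15 were higher and 2 lower in KATO-III CD133+ cells, against 18.7% and 20.6% of all rows. In SNU-216 2 were higher and 7 lower, against 14.6% and 14%, and in SNU-601 2 and 4, against 8.59% and 7.78%. The part of proliferation in the nucleolar genes was not tested.

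**Figure D4:**
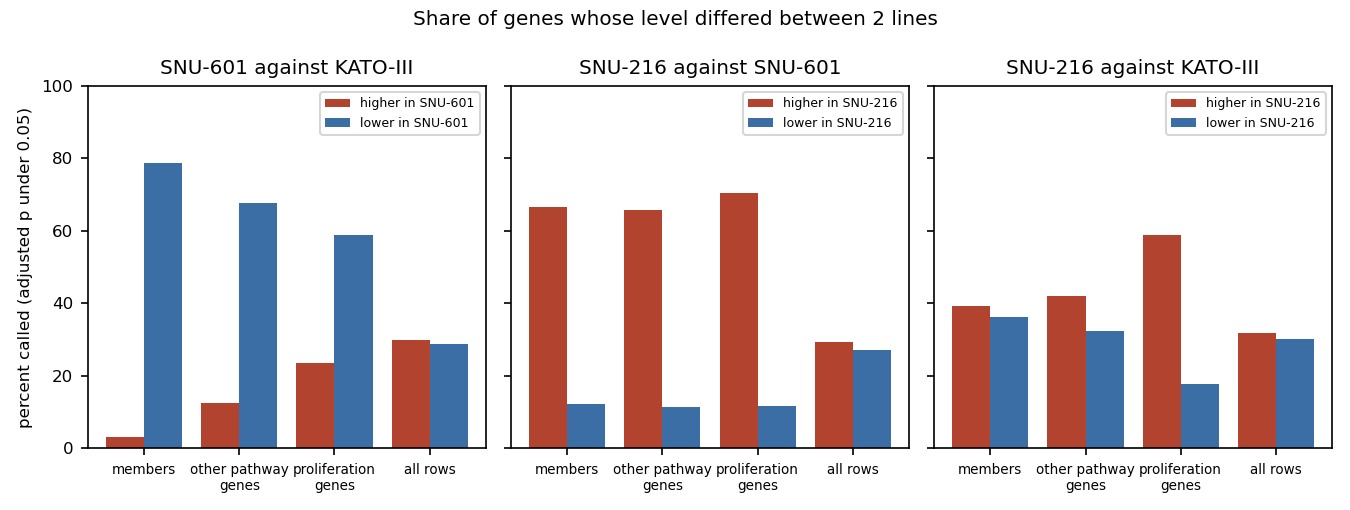
Percent of rows called higher (red) and lower (blue) between pairs of lines by limma, for the 33 nucleolar rows, 105 other pathway genes, 17 proliferation genes and all 20147 rows tested. In SNU-601 against KATO-III the nucleolar rows were lower in 78.8% and higher in 3.03%, where all rows were lower in 28.7% and higher in 29.9%.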

How the data were processed

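Sorted CD133 fractions of 3 gastric cancer lines were profiled on 12 single-color BeadChips. The authors deposited linear intensities, quantile-normalized per the study's methods, with 1 row per gene symbol. Values below 0 show that a background was subtracted. BeadStudio is named in the submitters' processing notes, and how probes of a symbol were combined is not given in the sources used here. Of 34688 rows 93 were empty. Medians per array were 26.0 to 27.1, 32.1% of values were at or below 0, and the number of arrays limits the precision.

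Intensities under the floor (32.7, the size of the first percentile of all values) were set to it and log2 was taken. Those 20147 rows that exceeded it on 2 arrays or more were fitted with limma 3.58.1 in R 4.3.3 (lmFit, eBayes with trend). Fractions within lines, the interaction, and line levels came from a model of 6 population means with 6 residual degrees of freedom, and the comparison over all lines from a model with line as a block with 8. P-values were adjusted by Benjamini-Hochberg over all rows tested, with a threshold of 0.05 and two-sided tests. A positive change means higher in CD133+ cells. The fold change is 2 to the power of the log2 change of floored intensities. Genes were given in full by a fixed rule: NCL, NPM1, FBL, DKC1, GAR1, NHP2 and the POLR1 subunits, the 3 largest called changes in each direction per line, the 3 smallest interaction p-values and the 3 widest line differences. Any other member could be named. The members, the lists and the alternatives were chosen with earlier results of these data known.

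Groups came from the array labels. Arrays of a population correlated at r = 0.993 to 0.995 over all rows. Alternatives varied the floor, an added offset, the filter, the centring, the normalization, the trend, the replicate number as a block, averaging of arrays and leave-one-out fits over the 12 arrays. Simulated data with known changes served to test the scripts. Promoters were read in Python 3.11.15 from a RefSeq table (GRCh38.p14), to which all 35 member rows were matched by current or older symbol.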

Additional observations from a re-analysis of the deposited data

Results flagged for a closer look

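The change between the CD133 fractions differed between the lines for 20 nucleolar rows by the interaction test of limma, 60.6% against 44.4% of all rows. On rows above the floor on every array the shares were 58.1% and 62.3%, so the count is not particular to these genes. The adjusted p-values over all 20147 rows tested follow. The smallest were 1.37e-05 for NOP58, 1.60e-05 for GAR1 and 9.03e-05 for NOL12. Next came NOP56 (adjusted p = 0.000424), NOL8 (adjusted p = 0.000456), POLR1E (adjusted p = 0.000511), UTP11L (adjusted p = 0.000629), UTP18 (adjusted p = 0.00157), NOLA1 (adjusted p = 0.00243) and NOP2 (adjusted p = 0.00400). Above these were POLR1C (adjusted p = 0.0178), POLR1A (adjusted p = 0.0184), UTP14A (adjusted p = 0.0205), NOP16 (adjusted p = 0.0219), UTP6 (adjusted p = 0.0249) and NOL11 (adjusted p = 0.0282). The 4 nearest to the threshold were NOLC1 (adjusted p = 0.0357), UTP23 (adjusted p = 0.0438), UTP15 (adjusted p = 0.044) and NCL (adjusted p = 0.0497).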

How the results depend on the processing

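The nucleolar genes had 32 called changes within a line. Of 668 values of these under alternatives, 594 kept direction and call, 74 lost the call and 0 reversed. Alternatives for the pairs of lines, and the pairs within each fraction, were chosen after seeing the data. Without the filter on dim rows (all 34595 rows with a value tested) SNU-216 had 1 row higher, SNU-601 had 2 lower and the interaction was called for 11. Without the trend SNU-216 and SNU-601 each had 1 row higher. With an offset of 100 in place of the floor, 1 row, UTP3, was higher over all lines. After averaging the arrays of each population the level differed between lines for 12 rows, with 2 higher and 1 lower in SNU-216 than in KATO-III, 0 higher and 5 lower in SNU-601 than in KATO-III, and 12 higher and 1 lower in SNU-216 than in SNU-601. That fit has fewer samples.

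Leaving out each array in turn gave these ranges. In KATO-III 9 to 16 rows were higher in CD133+ cells and 2 to 3 lower, in SNU-216 0 to 2 higher and 5 to 6 lower, in SNU-601 1 to 3 higher and 1 to 5 lower, and over all lines 0 to 0. The interaction was called for 13 to 16 and the line level for 28 to 29. SNU-216 exceeded KATO-III for 12 to 13 and was below it for 9 to 12, SNU-601 exceeded KATO-III for 1 to 2 and was below it for 20 to 25, and SNU-216 exceeded SNU-601 for 21 to 23 and was below it for 4 to 5. These arrays moved a count by over 1.5 times. Without KATO-III CD133+ replicate 1 the KATO-III count of higher rows was 9 and the interaction count 13, and without SNU-216 CD133- replicate 2 the interaction count was also 13. The SNU-216 count of higher rows was 0 without SNU-216 CD133- replicate 1, and 1 without CD133+ replicate 1 or CD133- replicate 2 of SNU-216 or any 1 of the 4 SNU-601 arrays. The SNU-601 count of higher rows was 1 without either CD133+ array or CD133- replicate 2 of SNU-601, and its count of lower rows was 2, 1 and 2 without CD133+ replicate 1, CD133+ replicate 2 and CD133- replicate 1. Rows higher in SNU-601 than in KATO-III were 2 without SNU-601 CD133- replicate 1. The cause was not tested.

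The labels number the arrays of each population, but same-numbered arrays did not deviate together (r = -0.0116 to 0.0276 over 15 pairs of populations, 0 of them above 0.1), so the numbers name arrays only. With the replicate number as a block the counts were 15 higher and 2 lower in KATO-III, 2 and 6 in SNU-216, 2 and 4 in SNU-601, and 18 for the interaction, the call lost in SNU-216 being that of POLR1E. Scaling each array to its median moved the median change of all rows by at most 0.0432. The arrays of a population correlated at 0.641 in their residuals over all lines, and with population as a random block the count over all lines was again 0 in each direction. Signal over background limits POLR1A, UTP3 and NOL10, and NPM1 and UTP20 gave no level.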
